A study of Mus musculus with 11 samples.

Results

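The 10 genes described here build the antennae of N-linked glycans in the Golgi or attach fucose to the core. They are the mannosidases Man2a1 and Man2a2, the N-acetylglucosaminyltransferases Mgat1, Mgat2, Mgat3, Mgat4a, Mgat4b, Mgat5 and Mgat5b, and the fucosyltransferase Fut8. They were chosen by name, and each was found through the RefSeq transcript in the probe set identifier. All 10 had a probe set, and each had exactly 1, among the 1246 probe sets and 908 named genes of the chip. CD4+ T cells of female C57BL/6 mouse spleen were sorted by flow cytometry into 3 populations, and RNA of 11 samples went onto a chip of glycosylation genes, 1 array a sample. Treg cells were CD25+ CD45RBlow (n = 3, replicates 1, 2 and 4). CD45RBlow cells were CD25- and are called activated or memory cells by the labels (n = 4). CD45RBhigh cells were CD25- and are called naive (n = 4). Age is stated as 4 to 6 weeks for the CD25- mice and not stated for Treg samples, so a difference in age cannot be told apart from the population in comparisons with Treg cells. No label says whether replicates came from separate animals or pools, so the p-values cover the spread among these arrays, which may be technical.

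N-glycans reach the Golgi as mannose-rich chains. MGAT1 adds the first N-acetylglucosamine, the paired mannosidases MAN2A1 and MAN2A2 then remove further mannoses outside the core, and MGAT2 starts the second antenna of a complex glycan. MGAT4A, MGAT4B and MGAT5 add further branches, MGAT3 adds a bisecting residue that hinders further branching, and FUT8 puts a fucose on the innermost sugar. In mouse T cells the branches made by MGAT5 are known as ligands of galectins, and loss of that enzyme is known to lower the threshold for activation through the T cell receptor.

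Values are log2 expression per probe set as deposited, and array medians lay between 4.85 and 4.94. Arrays of the same population correlated across probe sets at 0.991 to 0.998, and arrays of different populations at 0.956 to 0.984. Il2ra, which encodes CD25, averaged 9.84 ± 0.17 in Treg cells (SD, n = 3), 6.17 ± 0.36 in CD45RBlow cells and 4.07 ± 0.27 in CD45RBhigh cells (SD, n = 4 each), so it was highest in the CD25+ population. Of 5 genes that mark CD4 T cells as such, 0 were measured. Markers of other cells moved with the populations in part, and their part in the results below was not tested. On a linear scale the summed level of 2 of 6 natural killer and CD8 T cell markers ran from 16.7 to 24.9 in Treg arrays, from 265.4 to 378.7 in CD45RBlow arrays and from 500.2 to 683.8 in CD45RBhigh arrays, most of it from Klrd1. The sum of 2 of 6 B cell markers ran from 362.5 to 423.1, from 232.9 to 303.9 and from 245.5 to 307.0 in the same order of populations. The 2 genes differed in order. Mean log2 values were 8.24, 7.39 and 7.70 for Cd72, highest in Treg cells. For Cd22 they were 6.35, 6.64 and 6.06, highest in CD45RBlow cells. For 4 of 10 myeloid markers the ranges of the sum overlapped, at 91.0 to 99.8, 88.0 to 100.7 and 94.1 to 103.8. Of these 4, Cd209a was lower than in CD45RBhigh cells by 0.24 in Treg cells (adjusted p = 0.0476 in limma). In CD45RBlow cells it was lower by 0.26 (adjusted p = 0.032 in limma). For the single platelet marker measured, Selp, the ranges were 30.9 to 39.0, 22.8 to 27.6 and 24.5 to 27.8.

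Replicates 1 and 2 stood apart from replicates 3 and 4 in many probe sets. At 83 probe sets (6.66%) replicates 1 and 2 read above replicates 3 and 4 in all 3 populations, and at 140 (11.2%) below. Mgat2 and Fut8 were among the probe sets with the first pattern, and Mgat1 and Mgat4b among those with the other. Sample titles share part of a code across populations for each replicate number, but no label says what it means or what separates these replicates. Each difference below was therefore also computed with the replicate number as a block, because arrays with the same number deviated together from their population means, and within each replicate set.

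**Figure D1:**
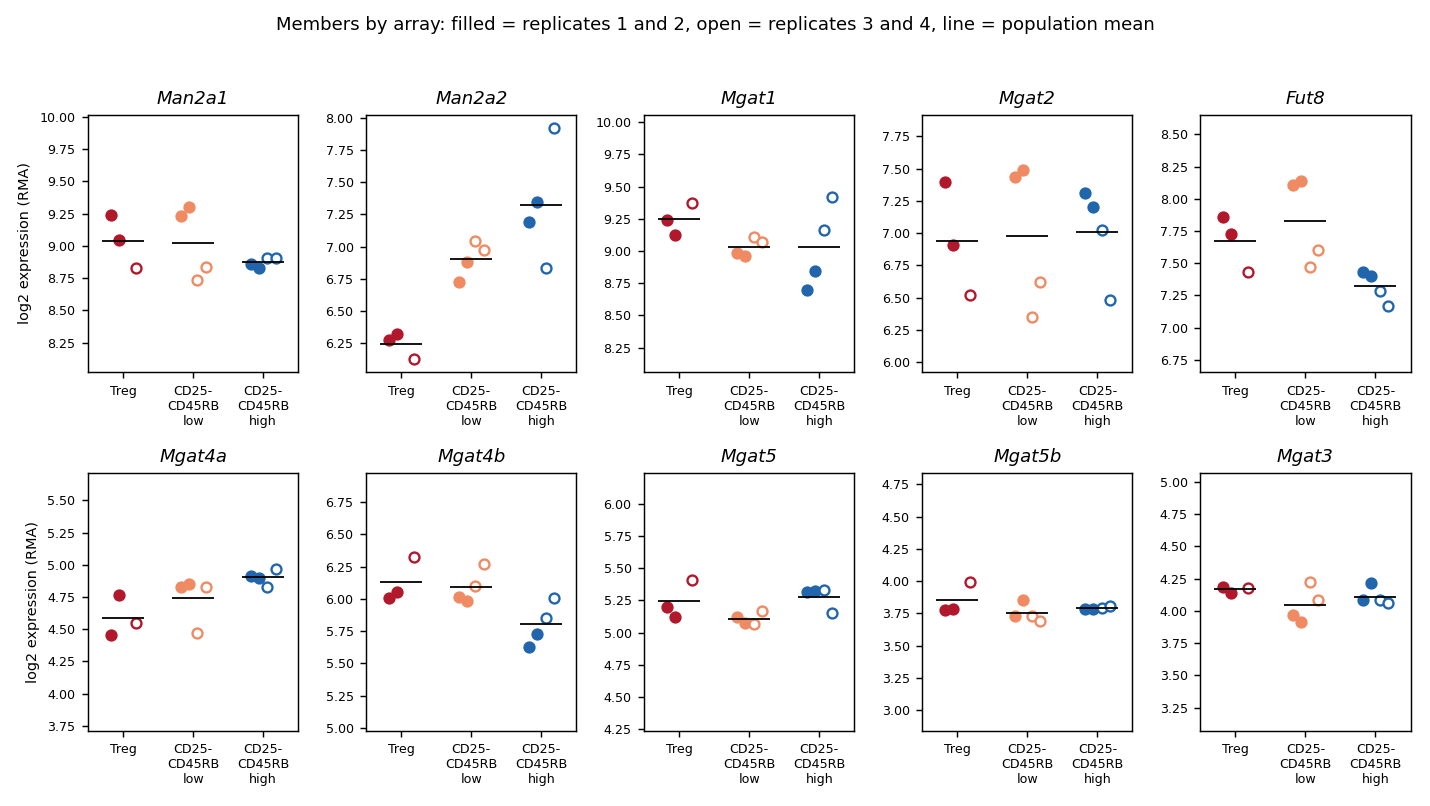
Log2 expression (vertical axis, each panel 2 units tall) of the 10 genes on every array, by population. Filled points are replicates 1 and 2, open points replicates 3 and 4, and lines are population means. Man2a2 was lowest on the 3 Treg arrays, at 6.13 to 6.32, and Fut8 and Mgat2 show filled points above open ones in each population.

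In the fit of all 11 arrays, 1 of the 10 genes passed an adjusted p of 0.05 between Treg and CD45RBhigh cells, and it was Man2a2, which fell in Treg cells. At an unadjusted p under 0.05 there were 3, Mgat4b upward and Mgat4a and Man2a2 downward, where the chip had 30% of its probe sets. The chip as a whole had 18.9% of its probe sets past the adjusted threshold, with 10.3% up and 8.59% down in Treg cells. Between Treg and CD45RBlow cells 0 of the 10 passed in limma, with 1 (Man2a2) at an unadjusted p under 0.05, where the chip had 22.6%. The chip had 12.5% past the adjusted threshold, with 6.74% up and 5.78% down in Treg cells. Between CD45RBlow and CD45RBhigh cells 0 of the 10 passed in limma, but 4 had an unadjusted p under 0.05, Fut8 and Mgat4b upward and Mgat5 and Man2a2 downward, beside 28.4% of the chip. The chip had 12.6% past the adjusted threshold there, with 7.62% up and 4.98% down in CD45RBlow cells. With 10 genes, these counts are near the shares of the chip.

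With the replicate number as a block the counts were 3 of 10, 1 of 10 and 2 of 10 in the same order of comparisons, and the shares of all probe sets 26.5%, 19.7% and 21.7%. The genes called with the block were Man2a2, Mgat4a and Mgat4b between Treg and CD45RBhigh cells, Man2a2 between Treg and CD45RBlow cells, and Fut8 and Mgat4b between CD45RBlow and CD45RBhigh cells. The median difference of the 10 genes was 0.06, 0.03 and -0.04 on the log2 scale in the 3 comparisons, beside -0.04, 0.04 and -0.08 for all probe sets. The comparisons share arrays, so they are not independent of each other.

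**Figure D2:**
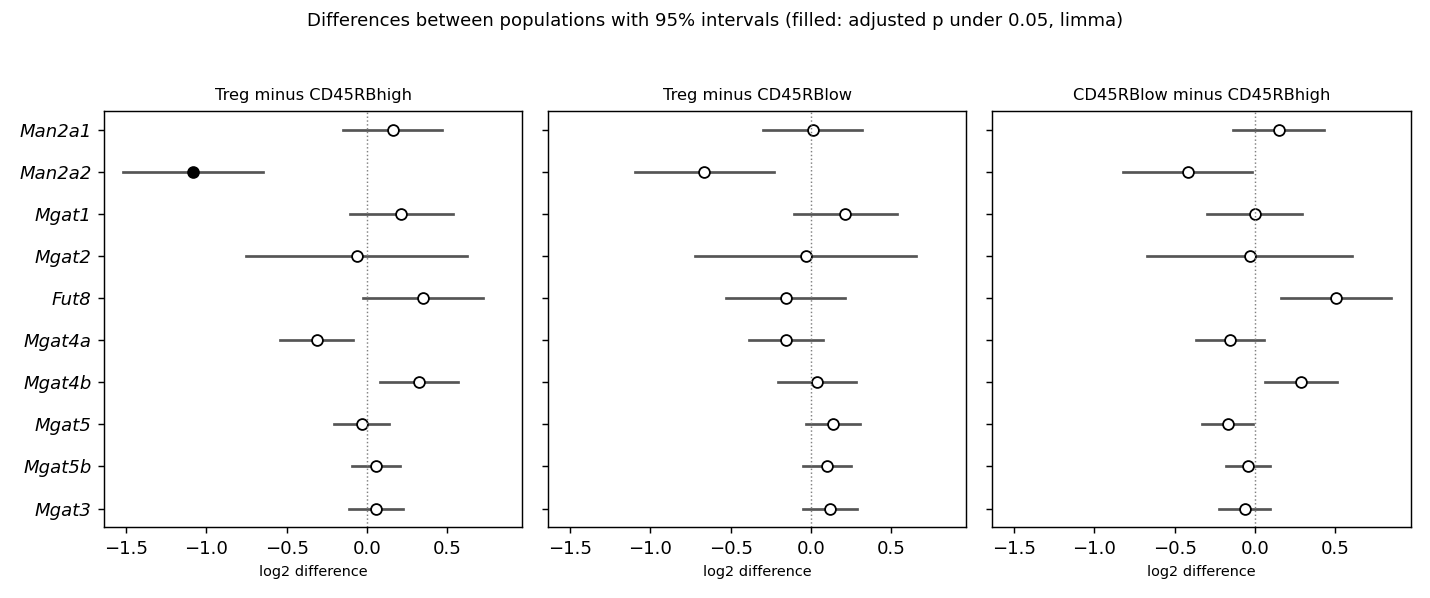
Log2 differences between populations (horizontal axis) of the 10 genes, with 95% intervals from limma, in the 3 comparisons. Filled points passed an adjusted p of 0.05, and the only one is Man2a2 in Treg minus CD45RBhigh at -1.08, while 0 of the other differences passed.

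Man2a2 encodes mannosidase IIx, a Golgi enzyme that removes mannose before the second antenna is started. It read 6.27, 6.32 and 6.13 in Treg cells, 6.72, 6.88, 7.05 and 6.97 in CD45RBlow cells, and 7.19, 7.35, 6.84 and 7.92 in CD45RBhigh cells, in the order of replicate numbers. All 3 Treg arrays lay below every array of the other populations, whereas CD45RBlow and CD45RBhigh arrays overlapped. Groups did not overlap at 25% of all probe sets between Treg and CD45RBhigh cells and at 21.3% between Treg and CD45RBlow cells. Man2a2 was 2.12-fold lower in Treg than in CD45RBhigh cells, with a log2 difference of -1.08 (SE 0.20, 95% interval -1.52 to -0.65, adjusted p = 0.0023 in limma). Leaving out any 1 of the 11 arrays kept the call, with differences of -1.25 to -0.88. Within replicates 1 and 2 the difference was -0.97, and within replicates 3 and 4, which hold 1 Treg array, it was -1.25 with an adjusted p of 0.202 in a separate limma fit.

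Against CD45RBlow cells Man2a2 was 1.58-fold lower in Treg cells, at a log2 difference of -0.66 (SE 0.20, 95% interval -1.10 to -0.23). Its adjusted p of 0.0509 in limma lay just outside the threshold, and it was 0.0172 with the replicate block (-0.72) and 0.00235 in a fit of the 7 arrays compared. It also passed without CD45RBhigh replicate 3 (adjusted p = 0.0201) or 4 (0.0045), arrays that enter this comparison only through the shared spread. Without any 1 of the 7 arrays compared it did not pass, at an adjusted p of 0.0651 to 0.153 in limma. Over 25 alternatives it passed in 12. CD45RBlow cells read 0.42 below CD45RBhigh cells (SE 0.18, 95% interval -0.82 to -0.02, adjusted p = 0.162 in limma), and 0.58 below them without CD45RBhigh replicate 3 (adjusted p = 0.0409). Of the 11 fits without 1 array only that 1 passed, and the adjusted p reached 0.317 in limma. Within replicates 1 and 2 this difference was -0.47 (adjusted p = 0.0162 in a separate limma fit), and with the replicate block its adjusted p was 0.1. The order of means was thus Treg, CD45RBlow and CD45RBhigh from low to high, and neither pair of neighbours passed in the fit of all 11 arrays without the block. In sorted bulk samples, fewer cells that express a gene and less RNA per cell cannot be told apart.

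Man2a1 encodes mannosidase II, the other enzyme of this step. It read 9.24, 9.05 and 8.83 in Treg cells, 9.23, 9.30, 8.74 and 8.83 in CD45RBlow cells, and 8.86, 8.83, 8.90 and 8.91 in CD45RBhigh cells. The 3 groups overlapped, and replicates 1 and 2 were the high ones in Treg and CD45RBlow cells only. Differences were 0.16 (95% interval -0.15 to 0.47, adjusted p = 0.533 in limma) between Treg and CD45RBhigh cells and 0.01 (-0.30 to 0.32, adjusted p = 0.969) between Treg and CD45RBlow cells. Between CD45RBlow and CD45RBhigh cells the difference was 0.15 (-0.14 to 0.43, adjusted p = 0.465). Within replicates 1 and 2 it was 0.42 there, with an adjusted p of 0.0208 in a separate limma fit, and within replicates 3 and 4 it was -0.12.

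The genes whose profile over the 11 arrays lay nearest to that of Man2a2, each centred on its own mean, were Galnt10, Galnt6 and Xylt2. Their root mean square differences from it were 0.19, 0.23 and 0.24 on the log2 scale, where Man2a2 itself varied by 0.50 about its mean. Galnt10 and Galnt6 start mucin-type O-glycans and Xylt2 starts glycosaminoglycan chains. The means of Xylt2 were 0.76 below its own overall mean in Treg cells, 0.15 above it in CD45RBlow cells and 0.42 above it in CD45RBhigh cells.

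Mgat1, whose product opens the path to hybrid and complex glycans, read 9.24, 9.13 and 9.37 in Treg cells, 8.99, 8.96, 9.11 and 9.07 in CD45RBlow cells, and 8.70, 8.85, 9.16 and 9.42 in CD45RBhigh cells. The Treg arrays lay just above every CD45RBlow array, and the CD45RBhigh arrays spanned both. Treg and CD45RBlow groups did not overlap at 21.3% of all probe sets. Treg cells differed by 0.22 from CD45RBhigh cells (95% interval -0.10 to 0.53, adjusted p = 0.395 in limma) and by 0.21 from CD45RBlow cells (-0.10 to 0.53, adjusted p = 0.442). Within replicates 1 and 2 Treg cells read 0.41 above CD45RBhigh cells, with an adjusted p of 0.0159 in a separate limma fit, and within replicates 3 and 4 0.09 above. CD45RBlow and CD45RBhigh means were both 9.03.

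Mgat2, whose product starts the second antenna, had the largest standard error of the 10 genes in these differences. It read 7.40, 6.91 and 6.52 in Treg cells, 7.43, 7.49, 6.35 and 6.62 in CD45RBlow cells, and 7.31, 7.20, 7.03 and 6.48 in CD45RBhigh cells. Replicates 1 and 2 exceeded replicates 3 and 4 by 0.63, 0.97 and 0.50 in these populations, and no difference between population means was larger than 0.06 in size. Its 95% intervals were wide, from -0.75 to 0.62 for Treg against CD45RBhigh cells (adjusted p = 0.933 in limma), so a change of 1.5-fold would lie inside them.

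The DNA before the start of Mgat4a and Fut8 is shown because these are the genes with a RefSeq promoter among those called with the replicate block. RefSeq (GRCm38.p6) gave promoters for 7 of the 10 genes, and Man2a2, Mgat4b and Mgat3 had none in the table used. Each sequence is the 250 bases before the most upstream of the listed starts, 2 for Mgat4a at chr1:37541017-37541266 on the minus strand and 4 for Fut8 at chr12:77237854-77238103 on the plus strand. Capitals mark GC boxes (GGGCGG or CCGCCC) and CCAAT boxes (CCAAT or ATTGG), searched on both strands.
Mgat4a: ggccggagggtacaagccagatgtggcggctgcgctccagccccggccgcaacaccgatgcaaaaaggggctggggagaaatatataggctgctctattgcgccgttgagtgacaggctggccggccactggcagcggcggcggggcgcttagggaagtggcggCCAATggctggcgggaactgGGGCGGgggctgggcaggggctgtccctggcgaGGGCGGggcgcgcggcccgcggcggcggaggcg
Fut8: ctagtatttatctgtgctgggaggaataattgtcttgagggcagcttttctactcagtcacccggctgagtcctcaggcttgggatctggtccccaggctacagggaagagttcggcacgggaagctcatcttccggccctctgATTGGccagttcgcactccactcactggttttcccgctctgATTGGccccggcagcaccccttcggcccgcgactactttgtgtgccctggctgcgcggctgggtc
Mgat4a had 2 GC boxes and 1 CCAAT box at a GC content of 72.4%, and Fut8 had 0 GC boxes and 2 CCAAT boxes at 59.2%. Of 32851 promoter windows of this length 32.7% held a GC box and 33.8% a CCAAT box, and the median GC content was 52.4%. An E-box (CACGTG, in 6.0% of windows) and a TATA box (TATAAA or TTTATA, in 12.4%) occurred in 0 copies in both. Matches of this kind are letters in a window and show no binding.

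Fut8 encodes the enzyme of core fucosylation. It read 7.86, 7.72 and 7.44 in Treg cells, 8.11, 8.14, 7.47 and 7.60 in CD45RBlow cells, and 7.44, 7.40, 7.28 and 7.17 in CD45RBhigh cells. Every CD45RBlow array lay above every CD45RBhigh array, and every Treg array did so as well, though Treg replicate 4 and CD45RBhigh replicate 1 round to the same value. Groups did not overlap at 17.8% of all probe sets between CD45RBlow and CD45RBhigh cells. Between Treg and CD45RBhigh cells that share was 25%. CD45RBlow cells were 1.42-fold above CD45RBhigh cells, with a log2 difference of 0.51 (SE 0.16, 95% interval 0.16 to 0.85) and an adjusted p of 0.058 in limma. With the replicate block the difference was the same and the adjusted p 0.00184. The difference was 0.71 within replicates 1 and 2 (adjusted p = 0.00114 in a separate limma fit) and 0.31 within replicates 3 and 4. It also passed without CD45RBlow replicate 3 (0.63, adjusted p = 0.0184) or replicate 4 (0.58, adjusted p = 0.0483). Those are the CD45RBlow arrays with the lowest values. Of the 11 fits without 1 array, 2 passed, and the adjusted p reached 0.163 in limma.

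Treg cells stood between these populations in mean Fut8 level. They read 0.35 above CD45RBhigh cells (95% interval -0.02 to 0.72, adjusted p = 0.196 in limma, and 0.0597 with the replicate block). That difference passed with the replicate set as covariate (0.29, adjusted p = 0.0336) and within replicates 1 and 2 (0.37, adjusted p = 0.0159). They read 0.16 below CD45RBlow cells (95% interval -0.53 to 0.21, adjusted p = 0.647 in limma), and 0.33 below them within replicates 1 and 2 (adjusted p = 0.0296). In the fit of all 11 arrays neither pair of neighbours in this order of means passed the test.

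The MGAT4 enzymes are paralogs that add the same kind of branch. Mgat4a read 4.46, 4.77 and 4.55 in Treg cells, 4.83, 4.85, 4.47 and 4.83 in CD45RBlow cells, and 4.91, 4.89, 4.83 and 4.97 in CD45RBhigh cells. All Treg arrays lay below all CD45RBhigh arrays, and CD45RBlow replicate 3 read with the Treg arrays. Treg and CD45RBhigh groups did not overlap at 25% of all probe sets. Replicates 1 and 4 of the CD45RBlow cells and replicate 3 of the CD45RBhigh cells carry the identical value, so the spread may be understated, and the probe set identifier has the suffix s, so its signal may not be specific to 1 transcript. Mgat4b read 6.01, 6.05 and 6.33 in Treg cells, 6.02, 5.98, 6.10 and 6.27 in CD45RBlow cells, and 5.63, 5.73, 5.85 and 6.01 in CD45RBhigh cells. CD45RBhigh replicate 4 reached the lowest Treg array, and the other CD45RBhigh arrays lay below all arrays of both other populations.

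Between Treg and CD45RBhigh cells Mgat4a differed by -0.31 on the log2 scale (SE 0.10, 95% interval -0.54 to -0.08, adjusted p = 0.0613 in limma) and Mgat4b by 0.33 (SE 0.11, 95% interval 0.08 to 0.57, adjusted p = 0.0672). With the replicate block both passed, Mgat4a at -0.37 (adjusted p = 0.00935) and Mgat4b at 0.34 (adjusted p = 0.00258). The differences were close in both replicate sets, at -0.29 and -0.36 for Mgat4a and 0.35 and 0.40 for Mgat4b, within replicates 1 and 2 first. Mgat4a also passed without Treg replicate 2 (-0.40, adjusted p = 0.0359), and Mgat4b without CD45RBhigh replicate 4 (0.39, adjusted p = 0.0307). Without CD45RBlow replicate 3 the Mgat4a difference stayed at -0.31, and its adjusted p was 0.017 in limma. That array enters this comparison only through the shared spread. Of the 11 fits without 1 array, Mgat4a passed in 2 and Mgat4b in 1. Their adjusted p reached 0.222 and 0.22 in limma. Against CD45RBlow cells Treg cells differed by -0.16 for Mgat4a (adjusted p = 0.435 in limma) and by 0.04 for Mgat4b (adjusted p = 0.872).

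CD45RBlow cells exceeded CD45RBhigh cells by 0.29 for Mgat4b (SE 0.10, 95% interval 0.06 to 0.51, adjusted p = 0.102 in limma, and 0.00508 with the replicate block). Without CD45RBhigh replicate 4 the difference was 0.35 (adjusted p = 0.0483), the only 1 of 11 fits without 1 array to pass. In the others the adjusted p reached 0.225 in limma. For Mgat4a the same comparison gave -0.16 (95% interval -0.37 to 0.06, adjusted p = 0.298).

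**Figure D3:**
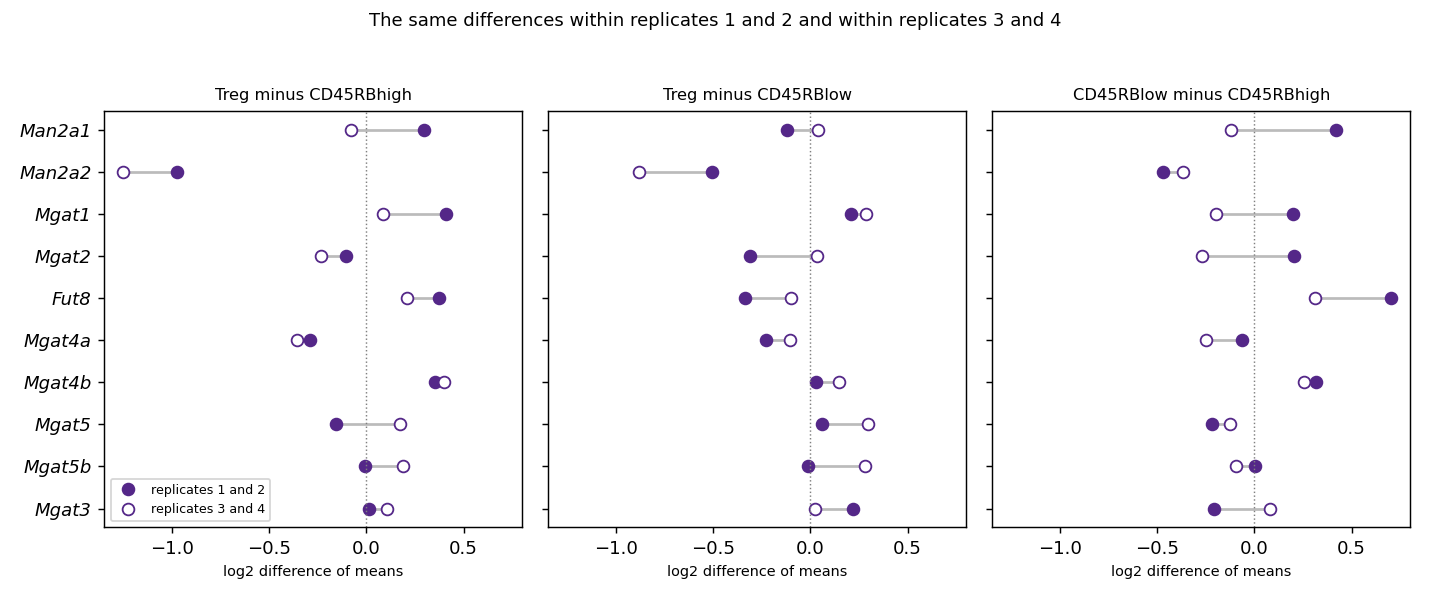
Log2 differences of population means (horizontal axis) of each gene, computed within replicates 1 and 2 (filled) and within replicates 3 and 4 (open, with 1 Treg array). Man2a2, Mgat4a and Mgat4b lie on the same side of 0 in both sets in Treg minus CD45RBhigh, while Man2a1 in CD45RBlow minus CD45RBhigh is 0.42 in replicates 1 and 2 and -0.12 in replicates 3 and 4.

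Mgat5 encodes the enzyme whose branch is extended into galectin ligands. It read 5.20, 5.12 and 5.41 in Treg cells, 5.12, 5.08, 5.07 and 5.16 in CD45RBlow cells, and 5.31, 5.32, 5.33 and 5.15 in CD45RBhigh cells. CD45RBlow arrays were low and narrowly spread, Treg arrays overlapped both other groups, and CD45RBhigh replicate 4 read with the CD45RBlow arrays. Treg and CD45RBhigh cells differed by -0.03 (95% interval -0.20 to 0.14, adjusted p = 0.837 in limma), an interval that holds no change as large as 1.5-fold. The difference between Treg and CD45RBlow cells was 0.14 (-0.03 to 0.31, adjusted p = 0.34). CD45RBlow cells differed from CD45RBhigh cells by -0.17 (-0.33 to -0.01, adjusted p = 0.157), and a repeated quantile normalization gave -0.24 (adjusted p = 0.0428).

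Mgat5b, a relative of Mgat5 best known from brain and from O-mannosyl glycans, ran from 3.78 to 3.99 in Treg cells, 3.69 to 3.86 in CD45RBlow cells and 3.79 to 3.81 in CD45RBhigh cells. Mgat3, which makes the bisecting residue, ran from 4.14 to 4.19 in Treg cells, 3.92 to 4.22 in CD45RBlow cells and 4.06 to 4.22 in CD45RBhigh cells. All groups overlapped for both genes. For Mgat3, CD45RBhigh replicates 1 and 3 and CD45RBlow replicate 4 carry the identical value of 4.08, so the spread may be understated there too. None of their 6 differences exceeded 0.12 in size, and their adjusted p ran from 0.424 to 0.711 in limma. The mean of Mgat5b over all arrays exceeded that of 27.7% of probe sets, that of Mgat3 34.7% and that of Mgat4a 48.1%, against 88.2% for Mgat1. The deposited values carry no detection call, so whether the dimmer ones stood above background was not tested, and a change in them may be understated.

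Because 3 pairs of the 10 genes encode related enzymes, the difference between the 2 probe sets of a pair was taken on each array, a choice made after the values were seen and given without a test. Mgat4b minus Mgat4a averaged 1.54 ± 0.25 in Treg cells (SD, n = 3), 1.34 ± 0.23 in CD45RBlow cells and 0.90 ± 0.15 in CD45RBhigh cells (SD, n = 4 each). Both Treg and CD45RBlow arrays lay wholly above the CD45RBhigh arrays, whose highest was 1.04. Man2a2 minus Man2a1 averaged -2.80 ± 0.15 in Treg cells, -2.12 ± 0.40 in CD45RBlow cells and -1.55 ± 0.45 in CD45RBhigh cells, and the Treg arrays lay wholly below the others. The Treg arrays were also lowest for Man2a2 alone, so that pair adds no separate finding. Mgat5b minus Mgat5 overlapped in all populations, at -1.39 ± 0.05, -1.36 ± 0.11 and -1.48 ± 0.10 in the same order. The level of such a difference depends on the 2 probe sets, so only its change between populations can be read. How often other pairs of probe sets separate the populations was not computed. Groups did not overlap at 25% of single probe sets between Treg and CD45RBhigh cells. That share was 21.3% between Treg and CD45RBlow cells and 17.8% between CD45RBlow and CD45RBhigh cells.

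**Figure D4:**
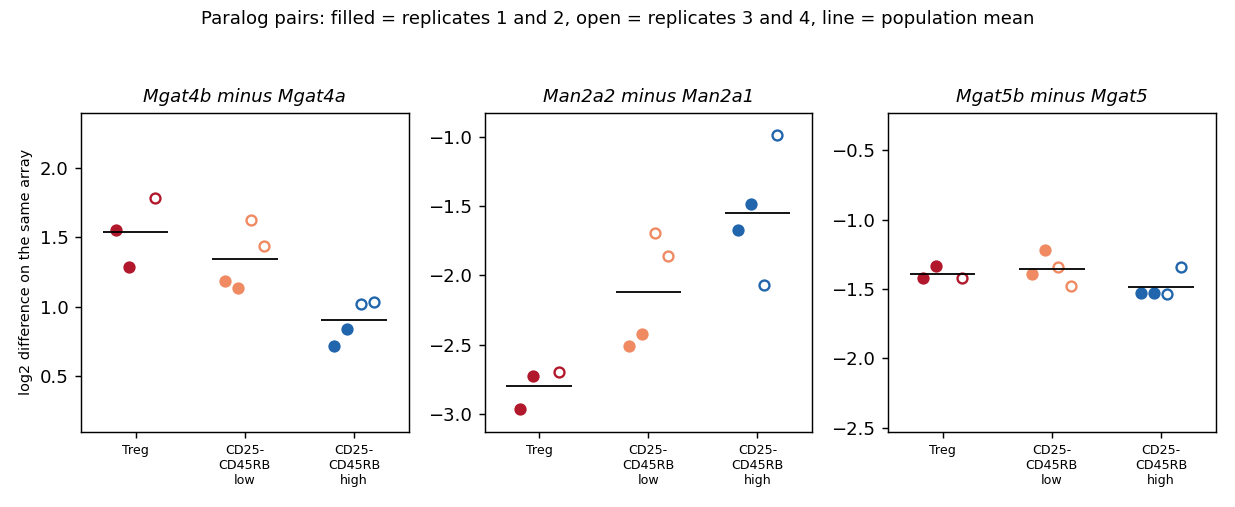
Difference in log2 expression between 2 related genes on the same array (vertical axis), by population. Filled points are replicates 1 and 2, open points replicates 3 and 4, and lines are population means. Treg arrays lie above CD45RBhigh arrays for Mgat4b minus Mgat4a and below them for Man2a2 minus Man2a1. Groups did not overlap at 25% of single probe sets in that comparison, and the pairs were chosen after the values were seen.

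Other genes of the same pathway were taken from lists chosen by name. Beside their counts, 18.9% of all probe sets passed between Treg and CD45RBhigh cells. The share was 12.5% between Treg and CD45RBlow cells and 12.6% between CD45RBlow and CD45RBhigh cells. Of the 8 genes that supply UDP-GlcNAc, the donor used by all MGAT enzymes, 1 rose and 0 fell in Treg against CD45RBhigh cells. It was Uap1l1, a relative of the UDP-GlcNAc pyrophosphorylase, at 7.79 ± 0.05 in Treg cells (SD, n = 3) against 7.45 ± 0.14 in CD45RBhigh cells (SD, n = 4), a difference of 0.34 (SE 0.08, adjusted p = 0.012 in limma). In both other comparisons 0 of the 8 passed in limma. Gfpt1, 1 of the 8, had an SD of 0 in CD45RBlow cells at a mean of 5.49, so its spread may be understated. An unadjusted p under 0.05 was found for 0 of the 8 between Treg and CD45RBlow cells. Between CD45RBlow and CD45RBhigh cells it was found for 1 upward and 2 downward, and 1 fell there with the replicate block. The median differences of this list were 0.07, 0.09 and -0.04.

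Of 6 genes for GDP-fucose, the donor of FUT8, 5 were measured, and 1 rose in Treg cells against either CD25- population. The shares of all probe sets called there were 18.9% against CD45RBhigh cells and 12.5% against CD45RBlow cells. Gmds, the first enzyme of the route from GDP-mannose, averaged 7.20 ± 0.12 in Treg cells (SD, n = 3), 6.79 ± 0.05 in CD45RBlow cells and 6.70 ± 0.12 in CD45RBhigh cells (SD, n = 4 each). Between CD45RBlow and CD45RBhigh cells, where Fut8 differed most, 0 of the 5 passed in limma, also at an unadjusted p under 0.05, and 1 fell with the replicate block. Slc35c1, the Golgi transporter of GDP-fucose, differed by -0.16 between Treg and CD45RBhigh cells (adjusted p = 0.672 in limma).

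Of 13 genes that extend or cap the antennae 11 were measured, and 2 rose and 3 fell in Treg against CD45RBhigh cells. The share of all probe sets called there was 18.9%. B4galt1, the main galactosyltransferase of antennae, fell by 0.28 on the log2 scale (SE 0.08, adjusted p = 0.0228 in limma), at 10.3 ± 0.01 in Treg cells (SD, n = 3) against 10.6 ± 0.14 in CD45RBhigh cells (SD, n = 4). The sialyltransferase St3gal6 fell by 2.64 and the galactosyltransferase B4galt4 rose by 1.22, and these 2 were also the ones called in the other comparisons. Against CD45RBlow cells 1 rose and 1 fell in Treg cells, and in CD45RBlow against CD45RBhigh cells 2 rose and 0 fell. With the replicate block this became 3 upward and 1 downward. The 5 calls between Treg and CD45RBhigh cells were 2 without Treg replicate 1 or 2 and 3 without CD45RBhigh replicate 3. The 2 calls between CD45RBlow and CD45RBhigh cells were 1 without CD45RBlow replicate 1 or 2 or CD45RBhigh replicate 3 or 4.

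Of 6 galectins, lectins that bind the antennae, 2 rose and 1 fell in Treg against CD45RBhigh cells, and 2 rose in CD45RBlow against CD45RBhigh cells. The shares of all probe sets called there were 18.9% and 12.6%. Between Treg and CD45RBlow cells 0 passed in limma, with 1 upward and 1 downward at an unadjusted p under 0.05, and 1 passed with the replicate block or without Treg replicate 4. Lgals1 encodes galectin-1 and averaged 12.1 ± 0.02 in Treg cells (SD, n = 3), 11.8 ± 0.22 in CD45RBlow cells and 10.6 ± 0.16 in CD45RBhigh cells (SD, n = 4 each). Lgals3 encodes galectin-3 and averaged 7.39 ± 0.10 in Treg cells (SD, n = 3), 7.61 ± 0.32 in CD45RBlow cells and 6.34 ± 0.18 in CD45RBhigh cells (SD, n = 4 each). The galectin that fell was Lgals4, by 0.67 on the log2 scale in Treg against CD45RBhigh cells (SE 0.21, adjusted p = 0.0494 in limma), at 6.99 ± 0.23 in Treg cells (SD, n = 3) against 7.66 ± 0.40 in CD45RBhigh cells (SD, n = 4). The identifiers of these 3 galectin probe sets also have the suffix s. Of 8 enzymes of trimming before MGAT1 only the glucosidase subunit Ganab was measured. It differed by -0.32 between Treg and CD45RBhigh cells (adjusted p = 0.199 in limma), and it fell with the replicate block in that comparison and between CD45RBlow and CD45RBhigh cells. Of 3 further branching genes Mgat4c and Mgat4d were measured. They averaged 2.53 and 3.43 in Treg cells, and 0 of their differences passed in limma or at an unadjusted p under 0.05.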

How the data were processed

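There were 11 arrays, 1 for each sample. The deposited table holds log2 values per probe set, computed by the authors with RMA (Robust Multichip Average), per the series text and the submitters' processing notes, with the version not given in the sources used here. This method subtracts background, equalises the arrays by quantiles and combines probes into 1 value. Values were used without further scaling or filter.

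Of 1246 probe sets 962 were named through their RefSeq transcript, without version, giving 908 genes. Where a gene had several probe sets the brightest was used. All arrays and probe sets entered 1 limma fit (version 3.58.1, R 4.3.3) with a mean for each population and moderated variances. The p-values are two-sided and were adjusted by Benjamini-Hochberg over all probe sets, with a threshold of 0.05. Alternatives covered scaling, filters, blocks, replicate sets and each array left out.

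Arrays sharing a replicate number had deviations from population means that correlated at 0.31 to 0.561 in every pair. Numbers 1 and 2 and numbers 3 and 4 also correlated within their set, at 0.203 to 0.579. The numbers were therefore also used as a block.

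The genes, lists and the rule for named genes (all 10 genes, up to 3 called genes per list and comparison by adjusted p, and the 3 nearest profiles of a called gene) were chosen with earlier results of these data known. The fit was tested on simulated data with independent noise on each array. That test therefore does not cover the deviations that arrays of a replicate number or set share. Figures were drawn with matplotlib 3.10.9.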

Additional observations from a re-analysis of the deposited data

Results flagged for a closer look

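Among the 10 genes 3 values stood far from the other 3 arrays of their population, by the gap to the nearest array as a share of the range. Each group of 4 was tested, and chance flags about 1 in 20 such groups. CD45RBlow replicate 3 read 4.47 for Mgat4a, where the nearest array read 4.83. CD45RBhigh replicate 4 read 5.15 for Mgat5, where the nearest read 5.31. CD45RBhigh replicate 2 read 4.22 for Mgat3, where the nearest read 4.08. Treg cells, with 3 arrays, were not tested in this way.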

How the results depend on the processing

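With the replicate number as a block, the genes called were 3 of 10 in Treg against CD45RBhigh cells, 1 in Treg against CD45RBlow cells and 2 in CD45RBlow against CD45RBhigh cells, and all probe sets called in the last 2 comparisons were 245 and 271. Without the block 1, 0 and 0 of the 10 and 235, 156 and 157 of all were called. The block changed no call of the 10 genes other than those given above. In the same order the 10 genes gave 3, 1 and 2 calls with a random block (22.7%, 15.6% and 18.1% of all probe sets), 4, 1 and 2 with the replicate set as covariate (319, 238 and 247 of all, or 25.6%, 19.1% and 19.8%), and 4, 2 and 4 within replicates 1 and 2 (20.6%, 14.8% and 15.2% of all). Within replicates 3 and 4 the counts were 0 of 10 in the first comparison and 88, 49 and 63 of all, and a test of at least 1.5-fold gave 0 and 72, 39 and 41. The arrays compared alone, cyclic loess and trended robust moderation each gave 2 in the first comparison, beside 210, 243 and 235 of all. In Treg against CD45RBlow cells those 3 each gave 1, beside 138, 153 and 162 of all. A repeated quantile normalization and filters at the first quartile or median also gave 1 each there. The calls among all tested were then 159, 144 of 940 and 104 of 624. In CD45RBlow against CD45RBhigh cells quantile, loess and the median filter each gave 1, beside 227, 144 and 111 of 624. All calls there divided 95 up and 62 down, 98 and 129 after the repeated quantile normalization, and 112 and 32 after loess. Leaving out 1 array gave 1 to 2, 0 to 1 and 0 to 1 of the 10. The matching counts of all probe sets were 164 to 227, 110 to 162 and 113 to 151.

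Over 25 alternatives, 11 of them leaving out 1 array, 741 differences of the 10 genes were computed. Of these 652 kept direction and side of the threshold, 46 came past it and 2 (Man2a2 in Treg against CD45RBhigh cells, within replicates 3 and 4 and in the 1.5-fold test) left it. Another 41 changed sign. Of these 0 were past the threshold in the fit that changed the sign, and 0 belonged to a difference called without the block. Man2a1 in CD45RBlow against CD45RBhigh cells changed sign within replicates 3 and 4 but passed within replicates 1 and 2 (0.4187, adjusted p = 0.0208 in limma). In Treg against CD45RBhigh cells the sign changes were Mgat5b within replicates 1 and 2 (-0.0048), Mgat5 (0.1722) and Man2a1 (-0.0802) within replicates 3 and 4, and Mgat2 (0.0113) and Mgat5 (0.0094) after loess. In Treg against CD45RBlow cells they were Man2a1 with the block (-0.0312), random block (-0.0032), set covariate (-0.0274), median centring (-0.0033) and within replicates 1 and 2 (-0.1214), Mgat5b there (-0.0094) and Mgat2 within replicates 3 and 4 (0.0344). In CD45RBlow against CD45RBhigh cells they were Mgat2 (0.2023) and Mgat5b (0.0046) within replicates 1 and 2, Mgat1 (-0.1973), Mgat3 (0.0801) and Man2a1 (-0.1198) within replicates 3 and 4, Mgat5b (0.0144) after quantile normalization, and Mgat2 (0.0552), Mgat3 (0.0268) and Mgat5b (0.037) after loess. Without 1 array, Treg against CD45RBhigh differences ran from -0.2911 to 0.1465 for Mgat2, -0.1152 to 0.0291 for Mgat5 and -0.0118 to 0.0948 for Mgat5b. Treg against CD45RBlow differences ran from -0.2585 to 0.179 for Mgat2, -0.0604 to 0.1007 for Mgat4b and -0.0885 to 0.1176 for Man2a1. CD45RBlow against CD45RBhigh differences ran from -0.1098 to 0.1285 for Mgat1 and -0.2073 to 0.1747 for Mgat2. The cause of these changes was not tested. A second probe set per gene was not run, because each gene had 1. Precision is limited throughout by how few arrays there are.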
